A study of Saccharomyces cerevisiae with 18 samples.

Results

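The 7 genes described here carry out tryptophan synthesis and uptake in budding yeast: TRP1, TRP2, TRP3, TRP4 and TRP5, which encode the enzymes that turn chorismate into tryptophan, and TAT1 and TAT2, which encode plasma membrane permeases that import it. They were taken by systematic name from a table of RNA-seq read counts. All 7 had a row among the 5143 rows of that table, and all 7 were among the 5133 rows that passed the filter on low counts. The set was chosen by the measured difference between the genotypes, TRP1 because it had the highest log2 fold change of all rows. Their values between genotypes are therefore given as a description and without p-values.

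The RNA-seq samples are 6 libraries from cultures of Saccharomyces cerevisiae, 3 of the wild type (WT) and 3 of the temperature-sensitive mutant ten1-31. TEN1 encodes a subunit of the Cdc13-Stn1-Ten1 complex, which binds telomeres, and the series asks how that complex bears on transcription by RNA polymerase II. Cultures of both genotypes were grown to saturation at 25 °C, diluted and grown for nearly 5 h at 34 °C. The labels name no strain background, no plasmid and no selection marker for either genotype, and they do not say whether the replicates were separate cultures or clones. The 12 ChIP-seq samples of the series were not analysed here.

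Tryptophan is made from chorismate, the end product of the shikimate pathway, which also feeds phenylalanine and tyrosine. Trp2 and a domain of Trp3 form anthranilate synthase, Trp4 adds a phosphoribosyl group, Trp1 rearranges the product, another domain of Trp3 closes the indole ring, and Trp5 completes tryptophan. In budding yeast the transcription factor Gcn4, which acts when amino acids run short, raises transcription of TRP2, TRP3, TRP4 and TRP5, whereas TRP1 is known as the TRP gene outside that control. A strain with no working TRP1 cannot make tryptophan and depends on uptake, so TRP1 is widely used as a selection marker. Tat2 is the high-affinity tryptophan permease, and Tat1 carries tryptophan with lower affinity along with tyrosine and other amino acids.

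TRP1 was far higher in ten1-31, and the other 6 genes were all lower there. All 7 genes were called in edgeR's quasi-likelihood test over all rows (adjusted p under 0.05), where 50.5% of all rows tested were called. In 1 of the 7 the call was higher in ten1-31, against 24.3% of all rows, and in 6 it was lower, against 26.2%. For all 7 genes the WT and mutant libraries were fully apart, without overlap, as they were for 60.5% of all rows tested. Nothing is read from these counts, since the contrast was used to choose the genes. The median log2 fold change, ten1-31 over WT, was -0.55 over the 7 genes, -0.89 over TRP2 to TRP5 and -0.43 over TAT1 and TAT2, beside -0.0038 over all rows tested.

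**Figure D1:**
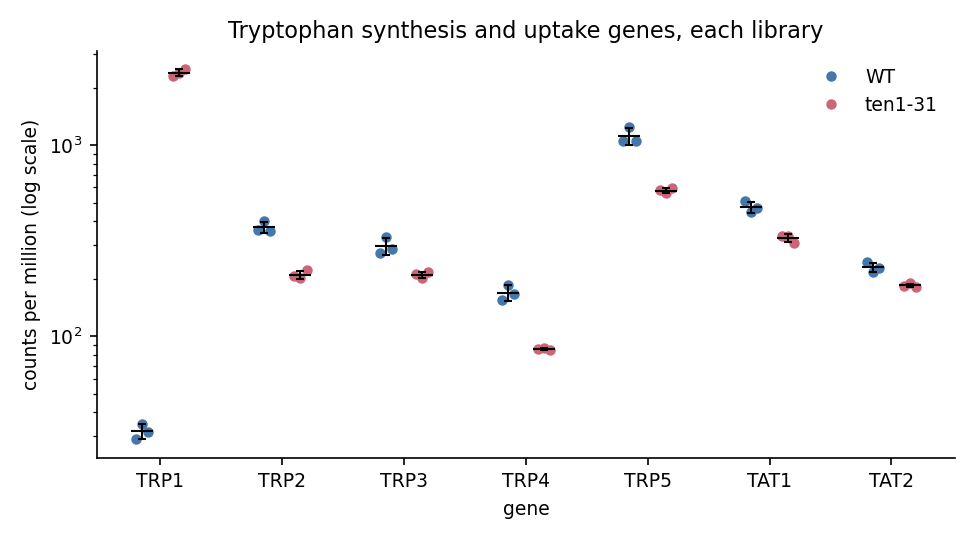
Level of the 7 genes in each library, in counts relative to the scaled library size (CPM, log axis); points are libraries, and black marks are the mean ± SD of 3 WT or 3 ten1-31 libraries. TRP1 averages 31.8 CPM in WT and 2396 CPM in ten1-31, while the other 6 genes sit lower in every ten1-31 library than in any WT library.

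Library totals lay between 10469608 and 14442999 counts, and counts of 3 or fewer were seen in no more than 5 rows of any library. The lowest count of any of the 7 genes was 397, for TRP1 in WT replicate 1. TEN1, the mutated gene, stood at 8.85 ± 1.57 CPM in the WT libraries and 30.1 ± 0.630 CPM in the mutant ones (SD over n = 3 libraries per genotype; by edgeR, adjusted p = 7.15e-05). CPM here are counts relative to library sizes scaled by the trimmed mean of M-values (TMM). Replicates are separately labelled samples of a genotype, and the spread between them is the error given. WT replicates 1 and 2 were the least alike of the pairs within a genotype, and values without each of them are given with the dependence on processing.

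TRP1 (YDR007W) encodes phosphoribosylanthranilate isomerase and lies on chromosome IV from 461842 to 462516, on the Watson strand (R64 annotation). Its level was 29.0, 34.8 and 31.5 CPM in WT replicates 1 to 3. In ten1-31 replicates 1 to 3 it was 2308, 2386 and 2494 CPM. The lowest mutant library thus stood far above the highest WT library, and within each genotype the libraries were close together. The log2 fold change was 6.24 ± 0.11 (SE, edgeR). On the log2 scale the SD was 0.13 between WT libraries and 0.06 between ten1-31 libraries. In a bulk culture, TRP1 RNA in all cells and a higher level in a part of the cells cannot be told apart.

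The share of all counts that fell on TRP1 was 0.00309 ± 0.000349% in WT and 0.246 ± 0.0116% in ten1-31 (SD over n = 3 libraries per genotype). Of the summed counts of the 7 genes, TRP1 held 1.18 ± 0.0638% in WT and 60.1 ± 0.888% in ten1-31 (SD over n = 3 libraries per genotype). As a result the 7 genes together took more of the library in the mutant, with 0.410 ± 0.0134% against 0.261 ± 0.0190% in WT, although 6 of them were lower. These shares are of raw counts and do not depend on the scaling.

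Per length of the gene, in CPM per kilobase (RPKM), TRP1 was at 47.0 ± 4.32 in WT and at 3549 ± 138 in ten1-31 (SD over n = 3 libraries per genotype). Ranked from the top by mean RPKM among 5102 rows with a length, TRP1 was number 3007 in WT and number 19 in ten1-31. The median row stood at 57.2 RPKM in WT and 57.9 RPKM in ten1-31. TRP1 was thus a little under the middle of these rows in WT and among the most abundant of them per length in the mutant. The deposited rows may leave out transcripts of low count, since their filter is not given.

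The rows beside TRP1 showed no difference of that size. SOK1, which lies 594 bases away on one side, was at 156, 140 and 140 CPM in WT replicates 1 to 3. In ten1-31 replicates 1 to 3 it was at 138, 141 and 141 CPM. The groups overlapped, and the log2 fold change of SOK1 was -0.05 ± 0.07 (SE; by edgeR, adjusted p = 0.538), with the sign positive when only library size was scaled for and without WT replicate 1. GAL3, a regulator of galactose genes 917 bases away on the other side, was at 8.40, 12.8 and 8.48 CPM in WT replicates 1 to 3. In ten1-31 replicates 1 to 3 it was at 22.3, 24.9 and 20.2 CPM, higher in every library than in WT. GAL3 rose by a log2 fold change of 1.18 ± 0.18 (SE; by edgeR, adjusted p = 0.00121). Over the 3 rows with counts on each side of TRP1, log2 fold changes ran from -0.72 to 1.18, with 2 called higher, 3 called lower and 1 not called, where 24.3% of all rows tested were called higher and 26.2% lower.

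**Figure D2:**
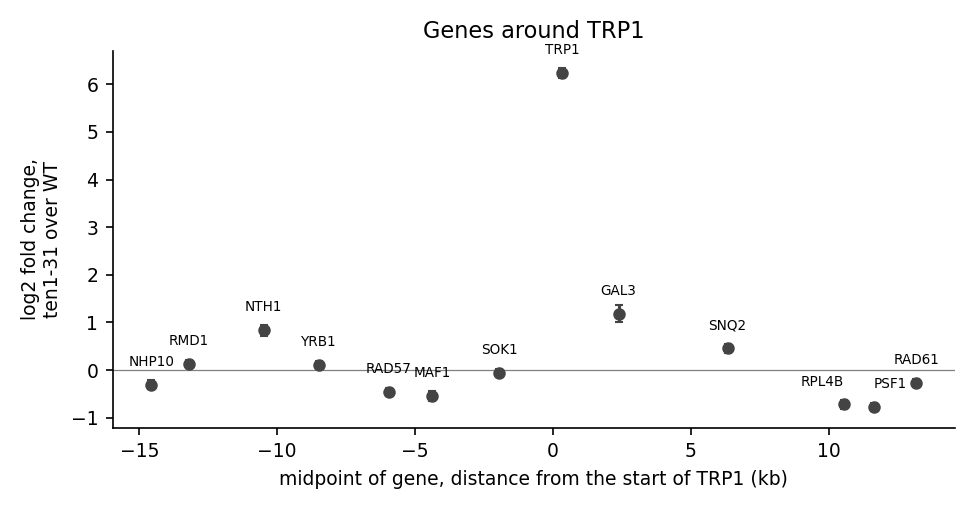
Log2 fold change (ten1-31 over WT, with the SE of the edgeR fit) of each row within 15 kb of TRP1, against the distance of the gene's midpoint from the start of TRP1 in kb. TRP1 stands alone at 6.24, and GAL3 follows at 1.18.

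Because TRP1 is used as a marker, 7 other genes that serve as auxotrophic or counter-selection markers were read beside it. They were picked with earlier results of these data known, so their calls are a description. None of the 7 was called higher in ten1-31, 6 fell and 1 did not pass the test, where 26.2% of all rows tested were called lower and 24.3% higher. The median log2 fold change of these markers was -0.59, beside -0.0038 over all rows. HIS3, an enzyme gene of histidine synthesis, fell from 238 ± 17.9 to 99.4 ± 8.53 CPM (SD over n = 3 libraries per genotype), which is a log2 fold change of -1.26 ± 0.09 (SE; by edgeR, adjusted p = 6.28e-05). LYS2, of lysine synthesis, fell by a log2 fold change of similar size, -1.24 ± 0.07 (SE; by edgeR, adjusted p = 3.83e-05). The pyrimidine gene URA3, the sulfur assimilation gene MET17, the arginine permease gene CAN1 and the purine gene ADE2 fell by 0.68, 0.57, 0.59 and 0.35 on the log2 scale. Their edgeR adjusted p-values were 0.00384, 0.00100, 0.000447 and 0.0224, and ADE2 lost its call with library size as the only scaling and on leaving out replicate 3 of WT or replicate 2 or 3 of ten1-31 (edgeR, adjusted p up to 0.0722). LEU2, of leucine synthesis, was at 102 ± 10.7 CPM in the WT libraries and 100 ± 6.31 CPM in the mutant ones (SD over n = 3 libraries per genotype; by edgeR, adjusted p = 0.832). Whether the ten1-31 strain carries TRP1 as a marker, or another TRP1 allele than the WT strain, was not tested, and such a difference cannot be told apart from the genotype.

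The genes whose levels across the 6 libraries lay nearest to those of TRP1 were PIR3, RIM4 and HSP30, among 4935 rows with a mean of at least 10 CPM. Nearness was the root-mean-square difference in log2 CPM, each row taken relative to its own mean. It was 0.96 for PIR3, a cell wall protein gene, 1.33 for RIM4, which encodes an RNA-binding protein of meiosis, and 1.37 for HSP30, a plasma membrane stress protein gene. A value close to 1 on the log2 scale still leaves a wide gap. TRP1 was chosen for the highest log2 fold change of all rows, so a gap of this kind was built in. Nothing is read from it.

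The first step of the pathway is made by TRP2 and TRP3. TRP2 (YER090W, chromosome V, 337949 to 339472, Watson strand) encodes the anthranilate synthase subunit that tryptophan inhibits. It was at 358, 401 and 354 CPM in replicates 1 to 3 of WT, and at 205, 201 and 221 CPM in those of ten1-31. Every mutant library was below every WT library, and the log2 fold change was -0.83 ± 0.08 (SE, edgeR). TRP3 (YKL211C, chromosome XI, 36699 to 38153, Crick strand) encodes the partner subunit, which also holds the ring-closing activity. Its level was 273, 329 and 287 CPM in replicates 1 to 3 of WT, and 211, 202 and 217 CPM in those of ten1-31. The log2 fold change of TRP3 was -0.50 ± 0.09 (SE, edgeR), the smallest among TRP2 to TRP5.

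TRP4 (YDR354W, chromosome IV, 1184747 to 1185889, Watson strand) encodes anthranilate phosphoribosyltransferase. It was at 154, 186 and 166 CPM in replicates 1 to 3 of WT, and at 85.6, 86.8 and 84.6 CPM in those of ten1-31. The mutant libraries were nearly equal, and the log2 fold change was -0.98 ± 0.08 (SE, edgeR). TRP5 (YGL026C, chromosome VII, 446412 to 448535, Crick strand) encodes tryptophan synthase. Its level was 1051, 1246 and 1045 CPM in replicates 1 to 3 of WT, and 579, 562 and 593 CPM in those of ten1-31. The log2 fold change of TRP5 was -0.95 ± 0.09 (SE, edgeR), so that TRP4 and TRP5 had WT levels 1.97-fold and 1.93-fold those of the mutant.

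The permease genes TAT1 and TAT2 had a smaller median difference than TRP2 to TRP5, although TAT1 differed about as much as TRP3. TAT1 (YBR069C, chromosome II, 376574 to 378433, Crick strand) was at 508, 446 and 471 CPM in replicates 1 to 3 of WT, and at 334, 335 and 307 CPM in those of ten1-31. Its log2 fold change was -0.55 ± 0.08 (SE, edgeR). TAT2 (YOL020W, chromosome XV, 286172 to 287950, Watson strand) was at 244, 218 and 226 CPM in replicates 1 to 3 of WT, and at 183, 189 and 181 CPM in those of ten1-31. Its log2 fold change of -0.32 ± 0.07 (SE, edgeR) was the smallest in size of the 7, and it was -0.23 when only library size was scaled for. Of the 7 genes, TAT1 alone overlaps another gene of the RefSeq table, the RNA gene TBRT. No row was found for TBRT under its RefSeq name. Whether reads over both genes were counted for TAT1 is not known, since the strand setting of the counting is not given in the sources used here. For the same reason antisense reads over any of the 7 genes cannot be told apart from sense reads.

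On the log2 scale the WT libraries spread more than the mutant ones for all 7 genes. WT replicate 2 was the highest WT library for each of the 5 TRP genes, and it was the lowest for TAT1 and TAT2. WT replicate 1 was the highest WT library for both permease genes. Neither the wider spread in WT nor the order of the WT libraries was counted over all rows tested. Neither is therefore read as particular to these genes. The SD of log2 CPM between WT libraries ran from 0.08 for TAT2 to 0.14 for TRP5, and that between ten1-31 libraries from 0.02 for TRP4 to 0.07 for TRP2. The pooled SD within a genotype had a median of 0.10 over the 7 genes and of 0.11 over all rows tested.

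**Figure D3:**
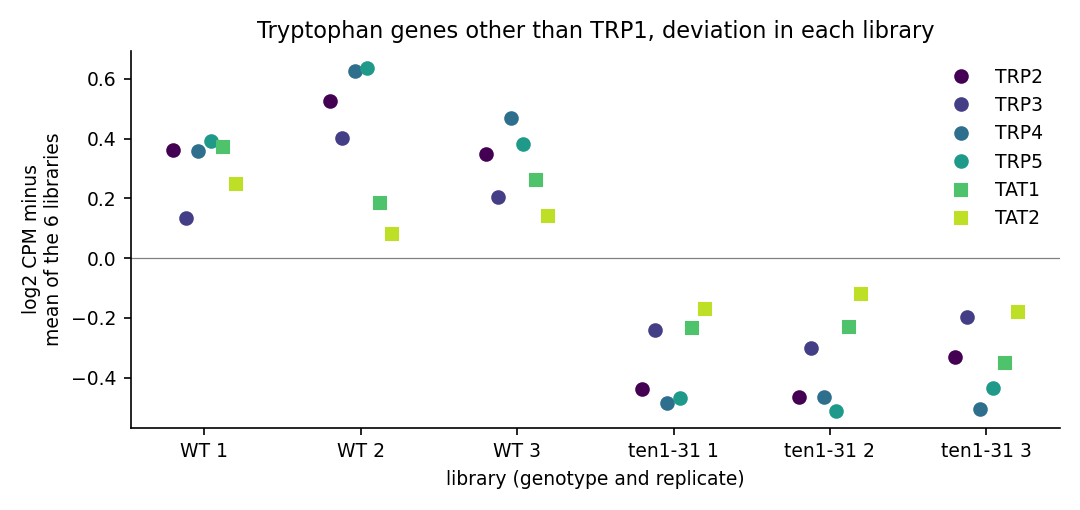
Log2 CPM of TRP2 to TRP5 (circles) and TAT1 and TAT2 (squares) in each library, minus the mean of the gene over the 6 libraries. All 6 genes lie above 0 in each WT library and below 0 in each ten1-31 library, and in WT replicate 2 TRP4 and TRP5 reach 0.63 and 0.64 while TAT2 is at 0.08.

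In WT the order of levels per length, from the top, was TRP5, TAT1, TRP2, TRP3, TRP4, TAT2 and TRP1. Mean levels were 525 ± 53.8, 255 ± 16.8, 244 ± 17.1, 204 ± 20.0, 148 ± 14.0, 129 ± 7.60 and 47.0 ± 4.32 RPKM in that order (SD over n = 3 libraries per genotype). TAT1 and TRP2 overlapped between libraries, as did TRP4 and TAT2, whereas the other neighbours in the order did not. In ten1-31 the order was TRP1, TRP5, TAT1, TRP3, TRP2, TAT2 and TRP4. Mean levels were 3549 ± 138, 272 ± 7.32, 175 ± 8.33, 144 ± 5.16, 137 ± 6.88, 104 ± 2.36 and 75.0 ± 0.993 RPKM (SD over n = 3 libraries per genotype). Only TRP3 and TRP2 overlapped there. TRP5 was the most abundant of TRP2 to TRP5 in both genotypes, TRP4 the least abundant, and TRP1 moved from the last place to the first.

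Ratios of levels per length within a library do not depend on the scaling between libraries. Several of them differed between the genotypes, which restates unequal log2 fold changes, such as -0.83 for TRP2 and -0.50 for TRP3. Ratios of other pairs of genes were not computed, so how often such pairs overlap is not known. TRP1 was at 0.168 ± 0.00594 times the mean of TRP2 to TRP5 in WT and at 22.6 ± 0.689 times that mean in ten1-31 (SD over n = 3 libraries per genotype). For the subunits of anthranilate synthase, the ratio of TRP2 to TRP3 was 1.25, 1.16 and 1.18 in replicates 1 to 3 of WT, and 0.930, 0.952 and 0.974 in those of ten1-31. Per length, TRP2 was thus the more abundant of the pair in every WT library and the less abundant in every mutant library. In raw counts, TRP2 had 2629, 2171 and 3108 in ten1-31 replicates 1 to 3, and TRP3 had 2700, 2178 and 3048. The order in the mutant therefore depends on the division by length. The ratio of TRP5 to TRP3 went from 2.58 ± 0.0730 in WT to 1.89 ± 0.0172 in ten1-31 (SD over n = 3 libraries per genotype), with no overlap. The ratio of TRP4 to TRP5 was 0.282 ± 0.0124 in WT and 0.276 ± 0.0111 in ten1-31 (SD over n = 3 libraries per genotype), and its libraries overlapped. The ratio of TAT1 to TAT2 was 1.98 ± 0.0172 in WT and 1.69 ± 0.0636 in ten1-31 (SD over n = 3 libraries per genotype), again with no overlap.

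**Figure D4:**
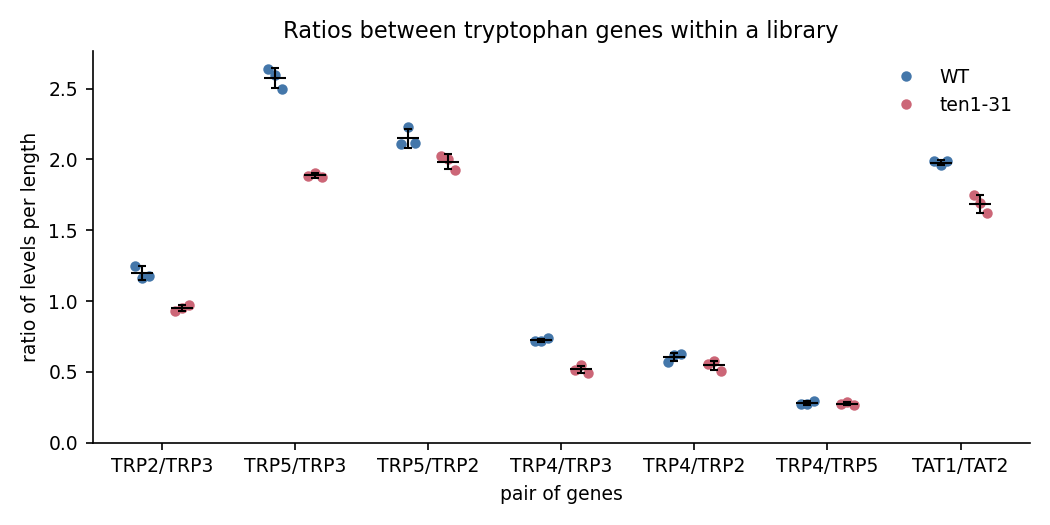
Ratios of levels per length between pairs of genes within each library; points are libraries, and black marks are the mean ± SD of 3 libraries per genotype. TRP2 to TRP3 crosses 1 between the genotypes, from 1.20 to 0.952 on average, and TRP4 to TRP5 overlaps.

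The genes nearest to the mean profile of TRP2 to TRP5 over the 6 libraries, among 4935 rows compared, were ARG56, BAP3 and TPN1. Their root-mean-square differences in log2 CPM were 0.03, 0.03 and 0.05. TRP2, TRP3, TRP4 and TRP5 themselves were at 0.03, 0.16, 0.09 and 0.07. These genes make up the mean, so their distances are not on a par with those of other genes. ARG56 is a gene of arginine synthesis, BAP3 encodes an amino acid permease and TPN1 a vitamin transporter. TAT1 and TAT2 lay farther from that profile, at 0.19 and 0.28. How many of the rows compared lay nearer than TAT1 or TAT2 was not counted. The log2 fold changes of ARG56, BAP3 and TPN1 were -0.86, -0.78 and -0.75. TRP2 to TRP5 were chosen by the difference between the genotypes, so this nearness largely restates similar log2 fold changes. Nothing is read from it.

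The shikimate pathway genes that lead to chorismate were lower in ten1-31: all 4 tested fell, where 26.2% of all rows tested were called lower. This list and the later lists were chosen with earlier results of these data known, so their calls are given as a description. Their median log2 fold change was -1.07, beside -0.0038 over all rows. ARO3 and ARO4, which encode the isozymes of the first step, fell by 1.42 and 1.16 on the log2 scale (edgeR, adjusted p = 0.000102 and 0.000126). ARO1, which encodes the enzyme of several central steps, fell by 0.97 (edgeR, adjusted p = 0.000352). The list for the branch to phenylalanine and tyrosine also held genes of aromatic amino acid breakdown. In that list 3 of the 5 genes tested fell, none rose and 2 did not pass. Of all rows, 26.2% were called lower and 24.3% higher. ARO10, a decarboxylase gene of aromatic amino acid breakdown, fell from 94.1 ± 15.6 to 22.5 ± 1.12 CPM (SD over n = 3 libraries per genotype; by edgeR, adjusted p = 4.06e-05). TYR1 and ARO8 fell by 0.78 and 0.53 (edgeR, adjusted p = 0.000449 and 0.00103), while PHA2 and ARO9 did not pass, with log2 fold changes of -0.06 and -0.34. ARO7, which encodes chorismate mutase, was not analysed here.

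Among genes that use tryptophan, 6 of 8 tested fell, none rose and 2 did not pass, beside 26.2% of all rows called lower and 24.3% called higher. The median log2 fold change of the list was -0.77, against -0.0038 over all rows. BNA1, BNA7 and BNA5, genes of the route from tryptophan to NAD, held the largest differences. BNA1 fell from 331 ± 80.2 to 123 ± 16.5 CPM (SD over n = 3 libraries per genotype; by edgeR, adjusted p = 0.000685). BNA7 and BNA5 fell by 1.14 and 0.87 on the log2 scale (edgeR, adjusted p = 9.22e-05 and 0.000214). BNA3 and the mitochondrial tryptophanyl-tRNA synthetase gene MSW1 did not pass, with log2 fold changes of -0.07 and 0.03. BNA2, which encodes the first enzyme of that route, was not analysed here.

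Beside TAT1 and TAT2, 9 genes were tested that encode other permeases able to carry tryptophan, the amino acid sensor at the plasma membrane, and STP1 and STP2, transcription factors that the sensor activates. Of these, 6 fell, 2 rose and 1 did not pass, with a median log2 fold change of -0.40 beside -0.0038 over all rows. Over all rows 26.2% were called lower and 24.3% higher, so the 2 that rose are near the background share. BAP2, the permease gene next to TAT1, fell from 682 ± 24.3 to 305 ± 14.1 CPM (SD over n = 3 libraries per genotype), which is a log2 fold change of -1.16 ± 0.07 (SE; by edgeR, adjusted p = 4.06e-05). AGP1 and BAP3 fell by 1.03 and 0.78 (edgeR, adjusted p = 0.000445 and 0.000205). PTR3 and STP2 rose by 0.29 and 0.34 (edgeR, adjusted p = 0.0173 and 0.0436), and SSY1, the sensor itself, did not pass, with a log2 fold change of -0.05. The number called was 5 of 9 without WT replicate 3 and also without ten1-31 replicate 1. STP2 lost its call in 6 of 13 alternatives and PTR3 in 3, among them the fits without WT replicate 3 and without ten1-31 replicate 1, with edgeR adjusted p-values up to 0.151 and 0.0953.

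Of the 4 regulators of general amino acid control, 2 fell, 1 rose and 1 did not pass, with a median log2 fold change of -0.14 beside -0.0038 over all rows. With 26.2% of all rows called lower and 24.3% higher, these counts say nothing particular about the list. GCN4 fell from 1301 ± 23.6 to 904 ± 19.4 CPM (SD over n = 3 libraries per genotype), which is a log2 fold change of -0.53 ± 0.07 (SE; by edgeR, adjusted p = 0.000599). Gcn4 protein is controlled mainly at translation, which read counts do not measure. GCN2, which encodes the kinase that senses uncharged tRNA, rose by 0.45 (edgeR, adjusted p = 0.00172). GCN20 fell by 0.22 (edgeR, adjusted p = 0.0366) and lost its call with library size as the only scaling (adjusted p = 0.102) and on leaving out any of WT replicate 3 or the ten1-31 replicates, where adjusted p-values reached 0.156. GCN1 did not pass, with a log2 fold change of -0.06.

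**Figure D5:**
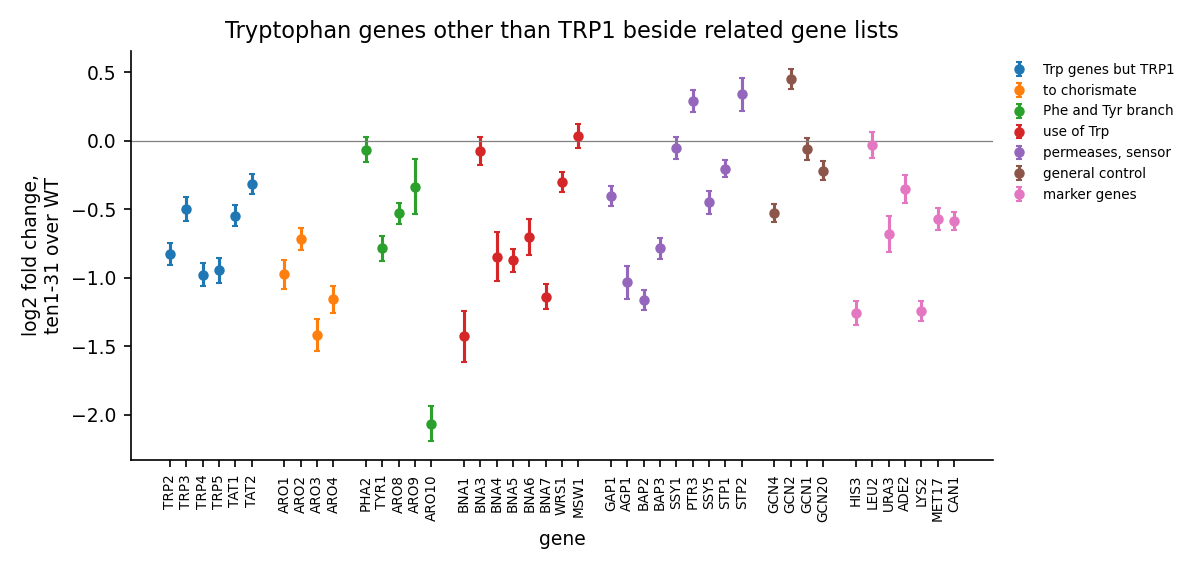
Log2 fold change (ten1-31 over WT, with the SE of the edgeR fit) of the tryptophan genes other than TRP1 and of 37 genes in 6 related lists. The 4 genes leading to chorismate lie between -1.42 and -0.72, the 6 tryptophan genes between -0.98 and -0.32, and the marker gene LEU2 at -0.03, with its sign positive under library size only and without WT replicate 2 or ten1-31 replicate 3.

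The rows beside the 7 genes were called about as often as rows in general. Over the 3 rows with counts on each side of each gene, 42 in all, 11 were called higher in ten1-31, 12 lower and 19 were not called, so that 23 were called, where 50.5% of all rows tested were called, 24.3% higher and 26.2% lower. The median log2 fold change of the flanking rows was 0.01, beside -0.0038 over all rows. Around TRP3, which was lower, all 6 rows had a log2 fold change above 0 and 3 of them rose, while around TRP5 4 of 6 fell and none rose. Rows called higher and lower were 2 and 3 around TRP1, 0 and 2 around TRP2, and 2 and 1 around TRP4. They were 3 and 1 around TAT1, and 1 and 1 around TAT2. A pattern at single genes was not tested.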

How the data were processed

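3 WT and 3 ten1-31 RNA-seq libraries were compared. The authors deposited raw read counts per feature, 1 column per library; the unit was read from the values. FastQC, cutadapt, Trimmomatic, TopHat2, Bowtie2 and featureCounts, and the builds R64 and sacCer3, are named in the submitters' processing notes, without roles or versions; the strand setting and row filter are not given in the sources used here. Symbols, lengths and positions are those of RefSeq for assembly R64.

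Counts were tested with edgeR 4.0.16 in R 4.3.3 (quasi-likelihood test, TMM, filterByExpr with minimum count 10 and minimum total 15, genotype as the only term), and p-values were adjusted by Benjamini-Hochberg over 5133 tested rows (threshold 0.05). "Rose" and "fell" mean past that threshold. SE is the log2 fold change divided by the square root of F. RPKM are TMM-scaled CPM per kilobase, and log2 CPM has 0.5 CPM added. Depth was 10469608 to 14442999 counts per library. SDs measure the spread between 3 libraries per genotype, which may be technical. The p-values and SEs use a dispersion that edgeR estimates for each row with information from all rows tested. They too rest on a spread between libraries that may be technical.

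The genes and lists were chosen with earlier results of these data known. Named were the 7 genes, TEN1, the 3 largest log2 fold changes in size of each list, all markers, the rows next to TRP1 and the 3 rows nearest in profile; PHA2, ARO9, BNA3, MSW1, PTR3, STP1, STP2, SSY1, WRS1 and GCN1 were named after their values were seen. Alternatives were other scalings, no row filter, DESeq2 1.42.0, limma-voom (limma 3.58.1), a replicate block and leaving out each library. No sequences were used here.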

Additional observations from a re-analysis of the deposited data

How the results depend on the processing

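Of 91 refitted log2 fold changes of the 7 tryptophan genes, 90 moved by less than the SD within a genotype, none changed sign, and 1 moved by more: TAT2, from -0.32 to -0.23 with library size as the only scaling, which shifts all rows by a median of 0.08. Across the fits that each left out 1 library, TRP1 ran from 6.18 to 6.31, TRP2 from -0.88 to -0.77, TRP3 from -0.55 to -0.42, TRP4 from -1.04 to -0.90, TRP5 from -0.99 to -0.86, TAT1 from -0.59 to -0.49 and TAT2 from -0.35 to -0.27. All 7 genes were called under each of the 13 alternatives. The same contrast was used to choose them, so nothing is read from this count. The number of rows called ran from 1824 (without ten1-31 replicate 2) to 2974 (without WT replicate 1), beside 2591, and from 2560 to 2633 under the other alternatives. The list of other permeases, the sensor and its transcription factors had 5 to 7 genes called when 1 library was left out, beside 8. LEU2 changed sign with library size only (0.050) and, over the fits without 1 library, ran from -0.095 to 0.054; SOK1 changed sign with library size only (0.026) and ran from -0.084 to 0.00056. Neither was called in any fit. Calls were lost by ADE2 in 4 alternatives, GCN20 and STP1 in 5 each, STP2 in 6, PTR3 in 3 and WRS1 in 1. The cause was not tested.

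Same-numbered libraries of the genotypes had correlated deviations from the group means (0.21, 0.21 and 0.09; the other 6 pairs from -0.24 to 0.05), and as not all exceeded 0.1 they were not treated as paired. A replicate block in the fit gave 2630 calls, 2475 of which were also made without it; the log2 fold changes were 6.24 for TRP1, -0.82 for TRP2, -0.49 for TRP3, -0.97 for TRP4, -0.94 for TRP5, -0.54 for TAT1 and -0.31 for TAT2, and the number called was 7 of the 9 genes of the permease and sensor list. Levels per length were computed with 1 length only, since the gene table gives no other. Depth limits these genes little, with at least 397 counts in each library.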
